A study of Arabidopsis thaliana with 12 samples.

Results

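CCB3, PSB27, LPA19 and ATAB2 are 4 nuclear genes of Arabidopsis thaliana whose products act in the chloroplast, where they help to build the complexes of the photosynthetic electron transport chain. They were taken as the genes to which the platform annotation assigns a probe of their own, and each has 1 probe, among 692 single-gene probes and 3439 probes in all. The 4 were selected on gene names after values of the mutant and wild-type arrays had been seen, and which of those values entered the choice is not recorded. The differences between mutant and wild type are therefore given for these genes as a description, without p-values, and the number of them past a threshold supports no statement about assembly factors. All 4 passed the filter on low values (at least 3 values above 0 in each group), CCB3 with only 4 of 6 wild-type values above 0.

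Total RNA was measured by array in 6 samples titled prors2 (prors2_dark) and 6 titled wild type (WT2_dark), all of ecotype Columbia 0 and dark-adapted overnight. The labels say that the mutant lacks prolyl-tRNA synthetase, the enzyme that attaches proline to its tRNA for protein synthesis, and the comparison asks which transcripts differ in that mutant. The groups rest on the titles, since another label describes the material of all 12 samples as wild type. The tissue, the age of the plants, the nature of the allele and the meaning of the 2 in WT2 were not stated in the labels, and no single-gene probe lists a gene for this enzyme by which the mutant label could be checked.

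The thylakoid membrane holds photosystem II, the cytochrome b6f complex and photosystem I, which pass electrons from water towards NADPH. Each is built stepwise from subunits made in the chloroplast and subunits imported from the cytosol, with the help of assembly factors that are not part of the finished complex. PSB27 and LPA19 are both related to the bacterial Psb27 protein, which binds photosystem II on the lumen side while the complex is being assembled or repaired. LPA19 is needed in Arabidopsis for normal processing of the D1 reaction centre protein. CCB3 is a thylakoid membrane protein of the pathway that attaches a haem covalently to cytochrome b6. ATAB2 is a chloroplast RNA-binding protein, related to Tab2 of the green alga Chlamydomonas, that takes part in the translation of photosystem messages.

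The whole arrays differed between the groups, and this touches every value below. The median deposited intensity per array lay between 0.240 and 0.403 in prors2 and between 0.0620 and 0.0852 in wild type, and 431 to 609 probes per array were listed at 0 in prors2 against 746 to 926 in wild type (2-sided exact permutation p = 0.00216 for each, 6 against 6 samples, the smallest p this design can give). With consecutive sample numbers averaged (3 against 3) each exact p was 0.10, again the smallest possible. Samples with neighbouring numbers (1 with 2, 3 with 4 and 5 with 6) formed pairs of similar arrays in prors2. In wild type these pairs were much weaker by correlation, but neighbouring arrays were close in median and in probes at 0. Their wild-type medians were 0.0800 and 0.0829, 0.0620 and 0.0646, and 0.0837 and 0.0852. The probes at 0 were 791 and 791, 926 and 916, and 755 and 746. Samples 3 and 4 had the lowest medians in each group. Over 1940 features, the deviations from the group mean correlated at 0.54 to 0.84 within these pairs in prors2 and at no more than -0.22 between other prors2 samples. In wild type the same correlations were -0.03 to 0.18 within pairs and at most -0.15 otherwise. Nothing in the labels says whether such pairs are separate plants or repeat readings, so the errors given over 6 samples may be partly technical and too small. Because the arrays differed as a whole, each gene is described first by its deposited intensity (linear, arbitrary units) and then by its log2 intensity after quantile normalization, which gives all 12 arrays the same distribution of values above 0. In bulk RNA, fewer cells of a type and less RNA per cell cannot be told apart.

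After normalization CCB3 was the only one of the 4 genes past an adjusted p of 0.05 in the fit across all features (limma, Benjamini-Hochberg), as higher in prors2. In the same fit 45.6% of the 2684 tested features passed in either direction, 25% as higher and 20.6% as lower in prors2. Since the genes were chosen with values of this contrast known, nothing is read from that count.

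CCB3 (AT5G36120), the cytochrome b6f factor, had a far higher signal in prors2. Its deposited intensity in prors2 was 0.144 at the lowest, 0.225 at the median and 0.331 at the highest. The wild-type intensities in samples 1 to 6 were 0.0192, 0.00414, 0, 0.00226, 0 and 0.00983. Every prors2 sample lay above every wild-type sample, and 2 of the wild-type samples were listed at 0. Groups without overlap and higher in prors2 were common on this scale, with 45.7% of 3438 features.

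On the normalized log2 scale CCB3 lay between -3.44 and -2.82 in the 6 prors2 samples and between -7.18 and -4.61 in the 4 wild-type samples above 0. The groups still did not overlap, as was the case, in the same direction, for 16.3% of tested features. CCB3 thus had a log2 difference, prors2 minus wild type, of 2.76 ± 0.43 (standard error) over the values above 0. Its size is not fixed, since the wild-type signal lay at the bottom of the deposited scale. The mutant values varied less, with an SD of 0.264 over 6 samples in prors2 against 1.12 over 4 samples in wild type. Leaving the 2 zeros out of the wild-type mean raises that mean. Another effect of zeros runs the other way. Normalization used only values above 0, and more probes stood at 0 in wild type. A low rank in the whole array therefore took a lower normalized value in wild type. Wild-type sample 1 at the 29.4 percentile became -4.61, whereas prors2 sample 6 at the 31.9 percentile became -3.42. How much this widened the difference was not tested. With the zeros kept and a pseudocount of 0.05 added before the logarithm, a scale that compresses low values, the difference was 0.93. Taken within pairs, the normalized difference of CCB3 was 2.49 in samples 1 and 2. It was 4.03 in samples 3 and 4 and 2.18 in samples 5 and 6, each time against 1 wild-type value above 0.

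The rank of the CCB3 probe within its own array, which no monotone rescaling can change, gave the same order of groups. CCB3 stood between the 31.9 and the 44.6 percentile of its array in prors2 and between the 11.0 and the 29.4 percentile in wild type. No overlap in this rank, higher in prors2, was seen for 12.2% of all features. CCB3 was thus below the array median in all 12 samples, and its wild-type signal lay near the lower end of the deposited scale.

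**Figure D1:**
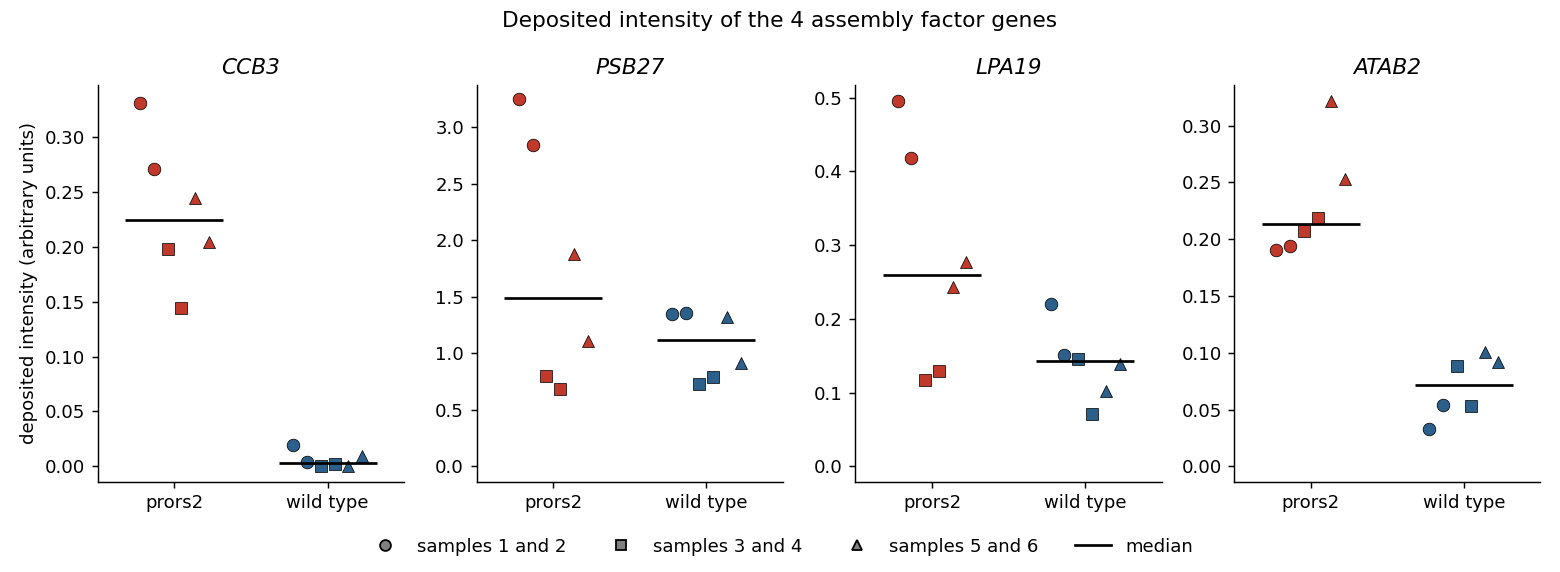
Deposited intensity (arbitrary units, linear axis, a separate range for each gene) of CCB3, PSB27, LPA19 and ATAB2 in the 6 prors2 and the 6 wild-type samples. Each point is 1 sample, its shape marks the pair of consecutive numbers and the line is the median. The groups of CCB3 and ATAB2 do not overlap, whereas those of PSB27 and LPA19 do: 3 prors2 values of PSB27 lie above the wild-type range and 1 below it, and 4 prors2 values of LPA19 lie above it.

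PSB27 (AT1G03600), the photosystem II factor, differed more among the prors2 samples than between the groups. Its deposited intensity in prors2 ran from 0.686 through a median of 1.49 to 3.25. In wild type it ran from 0.728 through a median of 1.11 to 1.35. The groups overlapped, with 3 prors2 samples above all wild-type samples and 1 below them. The mean was 1.76 ± 1.09 in prors2 and 1.07 ± 0.296 in wild type (SD, n = 6 each).

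In both groups PSB27 was high in samples 1 and 2 and low in samples 3 and 4, while samples 5 and 6 differed from each other (1.87 and 1.11 in prors2, 1.32 and 0.912 in wild type). Samples 1 and 2 averaged 3.05 in prors2 and 1.35 in wild type. Samples 3 and 4 averaged 0.745 in prors2 and 0.759 in wild type. Samples 5 and 6 averaged 1.49 in prors2 and 1.11 in wild type. The pair means thus had the same order in the mutant as in wild type, and samples 1 and 2 were the pair in which the groups lay farthest apart. Samples 3 and 4 were also the dimmest arrays of each group by median. After normalization the order stayed, with means of 1.65, -0.51 and 0.34 in prors2 for samples 1 and 2, 3 and 4, and 5 and 6. In wild type these means were 0.47, -0.10 and 0.23.

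On the normalized log2 scale PSB27 ran from -0.67 to 1.75 in prors2 and from -0.13 to 0.49 in wild type. Its log2 difference of 0.30 ± 0.41 (standard error) did not pass the threshold. Within pairs it was 1.18, -0.41 and 0.12, so the sign was not the same in every pair, and without samples 1 and 2 the difference was -0.15. With each array centred on the median of its log2 values above 0, the difference was -1.07 ± 0.31 (standard error) and passed as lower. The direction of PSB27 therefore turned with the scale. Its probe was bright on every array, between the 82.6 and the 96.4 percentile in prors2 and between the 89.4 and the 92.8 percentile in wild type.

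LPA19 (AT1G05385), the other relative of Psb27, had a lower normalized signal in prors2 although its deposited intensity was higher there. The deposited intensity ran from 0.117 through a median of 0.260 to 0.496 in prors2, against 0.0711 through a median of 0.142 to 0.220 in wild type. Here 4 of 6 prors2 samples, those numbered 1, 2, 5 and 6, lay above all wild-type samples, and samples 3 and 4 lay within the wild-type range. The mean was 0.280 ± 0.152 in prors2 and 0.138 ± 0.0504 in wild type (SD, n = 6 each).

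After normalization LPA19 ran from -3.72 to -2.06 in prors2 and from -2.79 to -1.54 in wild type. The same gene now had 4 of 6 prors2 samples, numbered 3 to 6, below all wild-type samples, and samples 1 and 2 within the wild-type range. The resulting log2 difference of -0.81 ± 0.31 (standard error), a factor of 0.570, narrowly missed the threshold. It lay below 0 in each pair of consecutive samples, at -0.43, -1.31 and -0.70. The call moved with the setting. LPA19 passed as lower with zeros kept and a pseudocount, without the dimmest 25% of features, with the set of neighbouring numbers as a fixed block, without samples 1 and 2 of both groups, without prors2 sample 1, without prors2 sample 2 or without wild-type sample 4. It did not pass with each pair averaged (-0.81), a setting in which CCB3 passed (2.90) and 20.9% of 2459 features did. LPA19 also missed the threshold with consecutive numbers as a random block, with median centring and with trend and robust variance moderation. The same held over features above 0 in all 12 samples, without samples 3 and 4, without samples 5 and 6, and with any other single sample left out. As deposited the difference had the other sign, 0.91 ± 0.39 (standard error), and did not pass. By rank within the array LPA19 stood between the 31.8 and the 58.2 percentile in prors2 and between the 52.0 and the 71.8 percentile in wild type.

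ATAB2 (AT3G08010), the translation factor, separated the groups as deposited but not after normalization. Its deposited intensity ran from 0.190 through a median of 0.213 to 0.321 in prors2, against 0.0327 through a median of 0.0714 to 0.101 in wild type. Every prors2 sample lay above every wild-type sample, as was so for 45.7% of all 3438 features on this scale. The mean was 0.231 ± 0.0497 in prors2 and 0.0702 ± 0.0272 in wild type (SD, n = 6 each), a ratio of 3.29.

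On the normalized log2 scale ATAB2 ran from -3.92 to -2.63 in prors2 and from -3.87 to -2.47 in wild type. The groups overlapped over nearly their whole range. Its log2 difference of -0.18 ± 0.31 (standard error) did not pass. Within pairs of consecutive samples it was -0.30, 0.05 and -0.28. With each array centred on the median of its log2 values above 0, the difference was 0.21, also not past the threshold. The direction thus differed between these 2 ways of normalizing and is not settled. By rank within the array ATAB2 stood between the 26.4 and the 47.0 percentile in prors2 (mean 38.5). In wild type it stood between the 34.8 and the 57.4 percentile (mean 47.6), so the ranks overlapped too. In both groups samples 1 and 2 had the lowest normalized values of ATAB2, with means of -3.88 in prors2 and -3.58 in wild type. The annotated span of ATAB2 overlaps that of its neighbour AT3G08020 by 69 bases in assembly TAIR10.1, and where the probe lies in the gene is not known here.

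**Figure D2:**
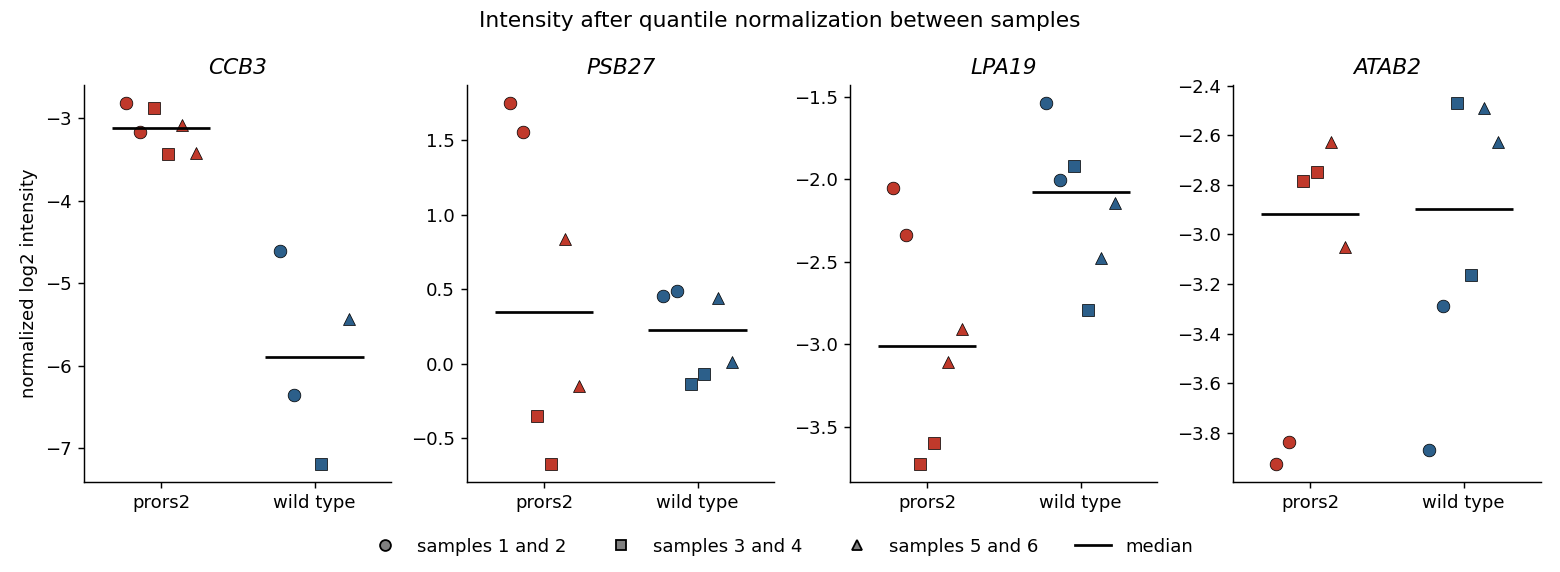
Log2 intensity after quantile normalization between arrays (arbitrary units, a separate range for each gene), with points, shapes and lines as for the deposited values. CCB3 of prors2 lies above all 4 wild-type values that were above 0, PSB27 and ATAB2 overlap between the groups, and 4 of 6 prors2 values of LPA19 lie below the wild-type range.

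As deposited all 4 differences were positive, at 5.11 for CCB3, 1.80 for ATAB2, 0.91 for LPA19 and 0.51 for PSB27. On that scale the median over all 2684 tested features was 1.49 and the median of the 4 genes 1.35. CCB3 and ATAB2 passed there as higher, where 75% of all features passed and 69.6% passed as higher. After quantile normalization the median of the 4 genes was 0.06 and that of all features 0.09. With median centring the median of the 4 was -0.23 and that of all features -0.10. CCB3 then passed as higher (3.56) and PSB27 as lower (-1.07), where 58% of features passed. Of the 4 genes, CCB3 was above the median of all features on the quantile-normalized, median-centred and deposited scales, and LPA19 was below it on each of them.

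**Figure D3:**
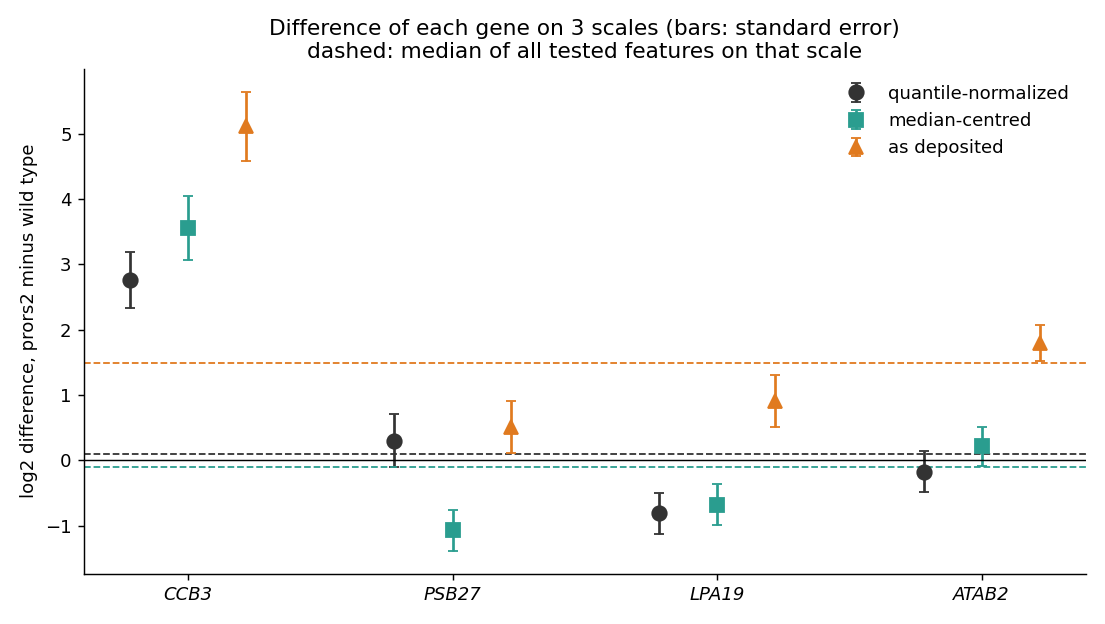
Log2 difference, prors2 minus wild type, of each gene on the quantile-normalized, median-centred and deposited scales. Bars are standard errors from the fit across all features over 6 against 6 samples (CCB3 with 4 wild-type values) and dashed lines the median of all tested features. CCB3 was positive on the 3 scales, and LPA19 had a difference below the dashed line on each.

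**Figure D4:**
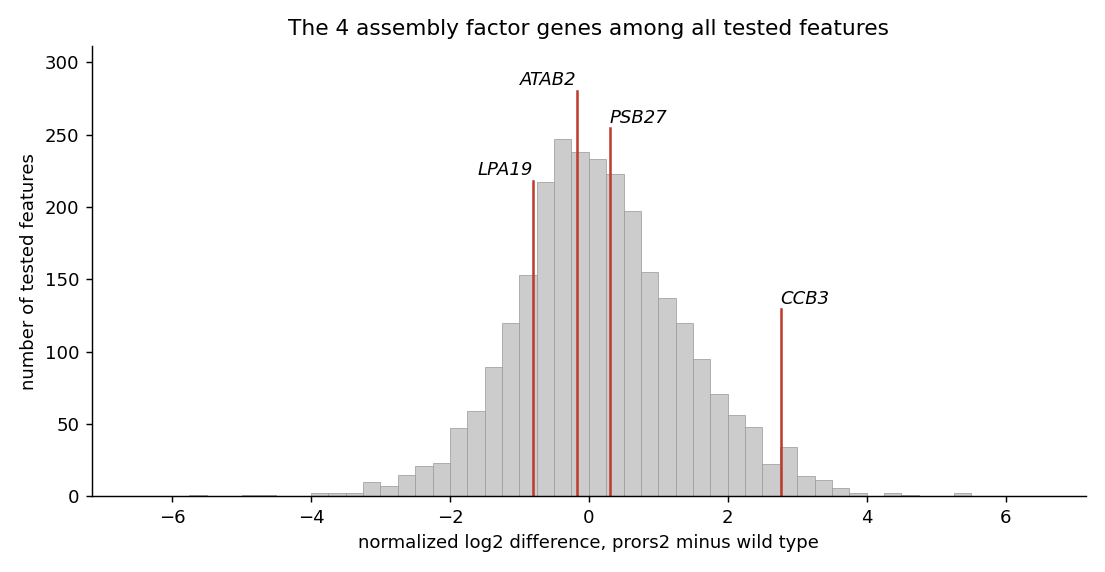
Number of tested features (vertical axis, 2684 in all) by normalized log2 difference, prors2 minus wild type. Red lines mark the 4 genes and their height carries no value. CCB3 at 2.76 lies in the upper tail, while PSB27 at 0.30, ATAB2 at -0.18 and LPA19 at -0.81 lie in the body of the distribution.

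PSB27 and LPA19, the 2 relatives of Psb27, went together from sample to sample in prors2, and less so in wild type. Their normalized values correlated at r = 0.90 over the 6 prors2 samples and at 0.33 over the 6 wild-type samples. Over all 12 samples r was 0.47, and 0.78 after the group means were taken out. Both were highest in prors2 samples 1 and 2 and lowest in prors2 samples 3 and 4. ATAB2 went the other way in prors2, with r = -0.80 against PSB27 and r = -0.91 against LPA19 (6 samples each). These are descriptions. The points share their arrays and fall into 3 pairs of neighbouring samples, whose deviations were more alike in prors2 than in wild type. Whether the spread among pairs is technical was not tested. CCB3 correlated with PSB27 at 0.52, with LPA19 at 0.27 and with ATAB2 at -0.33 over the 6 prors2 samples.

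The named genes whose normalized values followed each factor most closely were sought among the single-gene features above 0 in all 12 samples (367 candidates, or 368 for CCB3). These genes were picked as the 2 highest of many correlations over few samples. Their r values are raised by the picking, also with group means removed, and are a description only. For CCB3, over the 10 samples in which it was above 0, they were AT5G52960 (Pearson r = 0.97) and AT1G06730 (r = 0.97). AT5G52960 had a log2 difference of 2.39 and AT1G06730 of 1.49, so part of this likeness is the difference between the groups, and with group means removed r was 0.83 and 0.87. For PSB27 they were AT2G28540 and AT4G04370 (r = 0.82 each, 12 samples). With group means removed r was 0.87 and 0.83, against 0.78 between PSB27 and LPA19. For LPA19 they were AT4G29120 (r = 0.90) and AT4G08280 (r = 0.89), with log2 differences of -0.66 and -0.73. With group means removed r was 0.91 and 0.89. For ATAB2 they were AT1G51350 (r = 0.88) and AT2G23390 (r = 0.83).

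No other assembly factor could be set beside these 4. Of 63 further symbols searched, 52 were found in the gene table and led to 50 genes, none of which has a probe of its own. A probe shared with other genes lists 3 of them, and from such a probe no gene was named. Among the subunits that the factors help to assemble, and their antennae, 4 of 45 genes were tested, and limma called 0 of them at an adjusted p of 0.05 after quantile normalization (1 at an unadjusted p under 0.05), against 45.6% of all tested features. LHB1B2, an antenna protein of photosystem II, had a normalized log2 difference of -0.42, PSBY and PSBW, subunits of photosystem II, had -0.46 and 0.39, and the photosystem I subunit PSAN had -0.33. The median of these 4 was -0.37, against 0.09 for all features. These calls turned with the scale. With median centring all 4 passed as lower, at -2.51 for LHB1B2, -2.27 for PSAN, -2.10 for PSBY and -1.67 for PSBW, where 58% of all features passed in either direction. As deposited LHB1B2 (-0.92) and PSBY (-0.52) passed as lower, while PSAN (-0.68) and PSBW (-0.089) did not pass, on a scale where the median of all features was 1.49.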

How the data were processed

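The deposited values are array intensities of 3439 probes, linear and in arbitrary units, from 0 to a ceiling of 100 in every sample; no label says how the authors made them. Probe genes came from the platform annotation (692 probes with 1 gene, 870 with several, 1877 not listed), with names updated through the TAIR10.1 gene table for 690 of the 692. Zeros were set to missing, the remaining values log2-transformed and quantile-normalized, and probes of a gene averaged. A feature needed 3 or more values above 0 per group, which 2684 of 3438 had (530 of them named). The 2-sided test was limma 3.58.1 (lmFit, eBayes; R 4.3.3), with Benjamini-Hochberg adjustment over the 2684 and a threshold of 0.05. The fit was run on simulated data with independent samples. Consecutive numbers in the real data had a consensus correlation of 0.70, so the simulation does not cover that dependence. The number of arrays limits the precision. The members and lists were chosen with earlier results of these data known. Genes named in the text are the 4 members, the tested genes of both lists, and the 2 most similar genes per member by Pearson correlation over at least 8 samples. Alternatives covered normalization, zeros, filters, variance moderation, blocks by number and left-out samples. Median centring subtracted from each array the median of its log2 values above 0, whereas the median intensities per array given above count the zeros. No member had a sample far from its group in 16 groups examined (Dixon's ratio, on normalized and deposited values).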

Additional observations from a re-analysis of the deposited data

How the results depend on the processing

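CCB3 kept its direction and its call in all 12 other settings that could test it, between 0.93 (zeros kept) and 5.11 (no normalization), and between 2.29 and 3.16 with single samples left out. It could not be tested over features above 0 in all 12 samples, nor without numbers 1 and 2. ATAB2 turned to 0.21 with median centring and to 1.80 with no normalization, and ran from -0.35 to -0.02 with single samples left out. PSB27 turned to -1.07 with median centring and to -0.15 without numbers 1 and 2, and ran from 0.045 to 0.54 with single samples left out. LPA19 turned to 0.91 with no normalization. It passed as lower with zeros kept (-0.80), without the dimmest 25% of features (-0.81), with the sample number as a replicate block (-0.81), with sets of neighbouring numbers as a fixed block (-0.81) and without numbers 1 and 2 (-1.02), and ran from -1.01 to -0.67 with single samples left out. The number of the 4 genes past the threshold was 2 with median centring (58% of all features called), no normalization (75%), zeros kept (48.2%), the dimmest features removed (48.2%), the replicate block (45.1%) and the fixed block of sets (54.2%), 0 of the 3 testable over features above 0 in all 12 samples (50.2%), and 1 to 2 with single samples left out (41.9% to 44.6%). The causes were not tested, except that CCB3 is absent where zeros exclude it. Over all features, 671 passed as higher and 554 as lower. Higher calls numbered 1869 with no normalization, 307 with consecutive numbers averaged, 358 with them as a random block, 444 without numbers 5 and 6, and 604 to 653 with single samples left out. Lower calls numbered 905 with median centring, 144 with no normalization, 208 averaged, 313 with the random block, and 506 to 542 with single samples left out. Of the 4 tested subunits, 4 passed with median centring, 2 with no normalization, with zeros kept and over features above 0 in all samples, 1 with trend and robust moderation, with the fixed block of consecutive sets and without numbers 3 and 4, and 0 to 1 with single samples left out. The group difference of the array median was 0.257 and that of probes at 0 was -314 with consecutive numbers averaged, where 3 against 3 samples cannot pass; with single samples left out they ran from 0.243 to 0.275 and from -335 to -293. Samples of the same number in both groups correlated in their deviations at 0.05 to 0.16, over 0.1 for 4 of 6 numbers. Of 12 samples, 8 correlated best with their own number. Equal numbers thus shared some deviation, which the main fit and the exact tests left out. With the replicate block 669 features passed as higher and 539 as lower. Standard errors were then 0.40 for CCB3, 0.29 for PSB27, 0.22 for LPA19 and 0.18 for ATAB2, against 0.43, 0.41, 0.31 and 0.31 in the main fit. With consecutive numbers as a random block they were larger than in the main fit. They were then 0.71 for CCB3, 0.51 for PSB27, 0.43 for LPA19 and 0.42 for ATAB2. The list of other assembly factors had no tested gene and gave no value. Values near 0 on the deposited scale, such as CCB3 in wild type, limit the precision of its difference.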
